A study of Mus musculus with 3 samples.

Results

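The late cornified envelope (Lce) genes were examined in primary epidermal keratinocytes of mice that lack RASSF9. They were taken as 10 named genes, Lce1a1, Lce1b, Lce1c, Lce1d, Lce1f, Lce1g, Lce1h, Lce1i, Lce1m and Lce3c, with every probe set whose platform annotation gave 1 of these symbols and no other. That gave 12 probe sets of the 34945 with a single symbol, and 10 genes of 18193. Each of the 12 probe set gene IDs carried the same symbol in the RefSeq table. Of the 10 genes, 9 were bright enough for the test across 11089 genes, and Lce1c was not. RefSeq lists 21 Lce genes in the mouse. Single-symbol probe sets exist for 15 of them, and 5 of those 15 (Lce1a2, Lce1l, Lce3a, Lce3b and Lce3f) are described for comparison.

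Gene expression was read on 3 Affymetrix Mouse Genome 430 2.0 arrays, 1 of wild-type (WT) and 2 of RASSF9-/- cells, called array 1 and array 2 here. Per the methods, each array held RNA from 1 neonatal mouse and 1 plate. All were ICR mice, and the cells were kept in low-calcium defined keratinocyte serum-free medium, which favors growth over differentiation. RASSF9-/- mice are homozygous for an insertion of an Epstein-Barr virus LMP1 transgene, with its own upstream promoter, that removed part of the first intron of Rassf9. They come from a single insertion line, so the transgene and the deletion are both absent from WT and always occur together in RASSF9-/-. The labels gave 24 h of culture for WT and 48 h for both RASSF9-/- samples, whereas the methods gave 48 h for each sample. If the label times are right, the effects of genotype and of hours in culture cannot be told apart. By the scan names, WT and array 1 share an array date and array 2 has another, so array 1 minus WT is the difference within a date.

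The cornified envelope is a protein shell laid down beneath the membrane of keratinocytes as they die and form the outermost skin layer. Involucrin, envoplakin and periplakin form its first scaffold, loricrin and small proline-rich proteins reinforce it, and transglutaminases cross-link the parts. Lce proteins are small, rich in glycine and cysteine, and join late, mostly from the granular layer outward. Their genes lie side by side in the epidermal differentiation complex and are close copies of one another. The Lce1 group is the main group of normal epidermis, and the Lce3 group is known in human skin for induction after barrier injury and in psoriasis. Individual functions of the Lce1 proteins are not well separated, so the group is given below in place of a role for each.

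The promoters of these genes are shown first, as sequences in which a resemblance among most of the Lce1 genes can be seen. Transcript and probe sequences were not compared, so promoter likeness does not show which probe sets read other family members. RefSeq (GRCm38.p6) gave a promoter for 9 of the 10 genes, all but Lce1f. The 100 bases before the annotated start are printed 5′ to 3′ on the gene's own strand. Capitals mark the letters ATAAAAG and, where present, the overlapping AAAAGG.
Lce1a1 (chr3:92648308-92648407, minus strand): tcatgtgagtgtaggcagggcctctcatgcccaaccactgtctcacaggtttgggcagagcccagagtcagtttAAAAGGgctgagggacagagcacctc
Lce1b (chr3:92656927-92657026, minus strand): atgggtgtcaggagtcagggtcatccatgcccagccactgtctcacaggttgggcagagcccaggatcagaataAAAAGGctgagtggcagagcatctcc
Lce1c (chr3:92679147-92679246, plus strand): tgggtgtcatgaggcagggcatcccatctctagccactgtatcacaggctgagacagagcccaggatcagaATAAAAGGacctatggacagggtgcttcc
Lce1d (chr3:92687211-92687310, minus strand): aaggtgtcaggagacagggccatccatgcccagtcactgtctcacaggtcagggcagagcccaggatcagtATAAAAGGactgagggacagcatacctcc
Lce1g (chr3:92752339-92752438, minus strand): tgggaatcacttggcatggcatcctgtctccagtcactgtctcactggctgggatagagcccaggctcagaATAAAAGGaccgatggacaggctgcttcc
Lce1h (chr3:92765066-92765165, minus strand): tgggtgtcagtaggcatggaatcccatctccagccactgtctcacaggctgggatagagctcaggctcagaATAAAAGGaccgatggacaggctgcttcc
Lce1i (chr3:92778900-92778999, minus strand): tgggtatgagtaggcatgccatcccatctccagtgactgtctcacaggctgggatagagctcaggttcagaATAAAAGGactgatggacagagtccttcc
Lce3c (chr3:92944386-92944485, plus strand): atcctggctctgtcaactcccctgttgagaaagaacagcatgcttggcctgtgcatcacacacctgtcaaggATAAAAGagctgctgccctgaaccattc
Lce1m (chr3:93019062-93019161, minus strand): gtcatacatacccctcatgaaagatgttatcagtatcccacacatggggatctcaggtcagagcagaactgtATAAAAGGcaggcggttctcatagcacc
ATAAAAG, which resembles a TATA box and was searched on both strands in the 250 bases before the start, was present in 7 of the 9 promoters (Lce1c, Lce1d, Lce1g, Lce1h, Lce1i, Lce1m and Lce3c). Its first base lay 28 or 29 bases before the start in each. The same letters occurred in 15 of the 20 Lce promoters on file and in 4.83% of all 32851 promoters of this length. AAAAGG, which overlaps it, was common to the 8 Lce1 promoters shown, with its first base 26 or 27 bases before the start, and occurred in 18.3% of all promoters. The plain TATA box TATAAA was found in Lce1d and Lce1m and in 12.4% of all promoters, and overlaps ATAAAAG there. CACCC, the core bound by Krüppel-like factors, was found in Lce1b, Lce1c and Lce1h and in 52.0% of all promoters. The AP-1 letters TGANTCA (6.75% of all promoters), the octamer ATGCAAAT (1.60%) and CCAAT (33.8%) were in 0 of the 9 windows. These are letter matches in a fixed window and describe no binding.

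Lce1g, Lce1h and Lce1i had the most alike promoters. Over the 250 bases, Lce1g was identical to Lce1i at 85.6% of aligned positions and to Lce1h at 84.5%, and Lce1h was identical to Lce1i at 81.3%. These were the highest 3 of 36 pairs, whose identity had a median of 65.1% and a minimum of 51.9%. Pairs that included Lce3c lay between 51.9% and 54.9%, and those that included Lce1m were as low, between 52.7% and 54.0%. No promoters from outside the family were aligned, so these low values have no background to be read against. These 3 promoters shared a pair of stretches of 15 bases. TCAGAATAAAAGGAC, seen in the lines above, was in 6 of all promoters (Lce1c, Lce1e, Lce1g, Lce1h, Lce1i and Lce1j), and GCTGATGAGGAATAT, farther upstream, was in 4 (Lce1e, Lce1g, Lce1h and Lce1i).

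**Figure D1:**
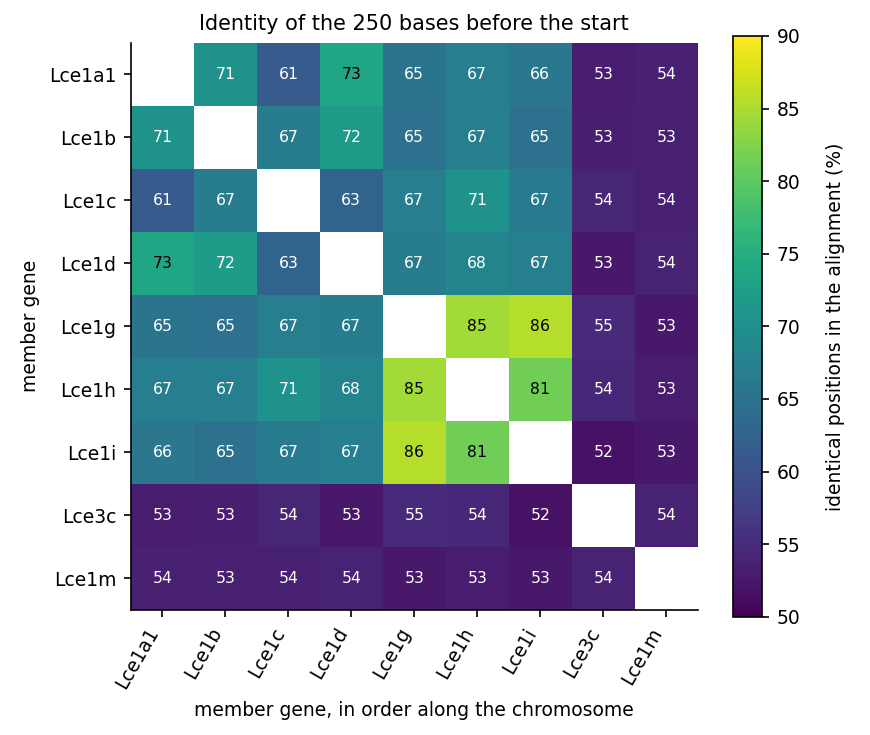
Identity of the 250 bases before the start for each pair of the 9 promoters, in percent of aligned positions, with the genes in chromosomal order on both axes. The block of Lce1g, Lce1h and Lce1i holds the highest values, 81.3% to 85.6%. The pairs with Lce3c or Lce1m are at most 54.9%.

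Likeness among the transcripts limits what a single probe set can tell. Affymetrix marks a probe set _x_at where some of its probes also match other sequences, and _s_at where its probes are shared by several transcripts. Of the 12 probe sets, 5 were _x_at (Lce1a1, Lce1d, Lce1h, Lce1i and Lce3c), 1 was _s_at (Lce1m) and 6 were plain _at. The 6 Lce genes with no single-symbol probe set of their own (Lce6a, Lce1e, Lce1j, Lce1k, Lce3d and Lce3e) may add to these signals, and how far they did was not tested. Signals of different probe sets are not compared with each other below.

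Rassf9 itself was read first. Its brighter probe set (1427942_at) gave a signal of 478.1 on the WT array, 59.6 on array 1 and 120.2 on array 2. Its other probe set (1440411_at) gave 340.4, 68.2 and 76.7. Both RASSF9-/- arrays were below WT on each probe set, at least 4.93-fold and at least 4.34-fold lower on average, because a signal under 78.4, the highest of 27 bacterial control probe sets, was taken only as a bound. With the brighter probe set the limma difference was -2.50 on the log2 scale (SE 0.67, adjusted p = 0.530). The position of these probe sets relative to the deleted intron was not analysed here. Across the arrays, median signals were 81.7 to 99.0, the 3′ to 5′ signal ratio of Gapdh was 0.832 to 0.939, and that of beta-actin was 1.37 to 1.43. Of the keratinocyte markers, 7 of 8 were on the array and all 7 were above the bacterial controls on every array.

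The Lce genes split the RASSF9-/- arrays. Of the 9 genes tested, 6 (Lce1a1, Lce1b, Lce1d, Lce1f, Lce1m and Lce3c) were lower than WT on array 1 and higher than WT on array 2, which held for 13.4% of all genes tested. All 9 were higher on array 2 than on array 1, as were 5005 of the 11089 genes tested. Of the 9, 7 were at least 2-fold higher on array 2 than on array 1, against 5.03% of all genes. Lce1h, at 6.28 times WT on average, was the single gene at least 2-fold higher on both arrays. By limma with Benjamini-Hochberg adjustment over all genes, 0 of the 9 passed (0.0812% of all genes did, 9 genes), and 1, Lce1h, was under an unadjusted p of 0.05, as were 615 genes in all (5.55%). In RNA from a whole plate, fewer cells of a type and less RNA per cell cannot be told apart.

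**Figure D2:**
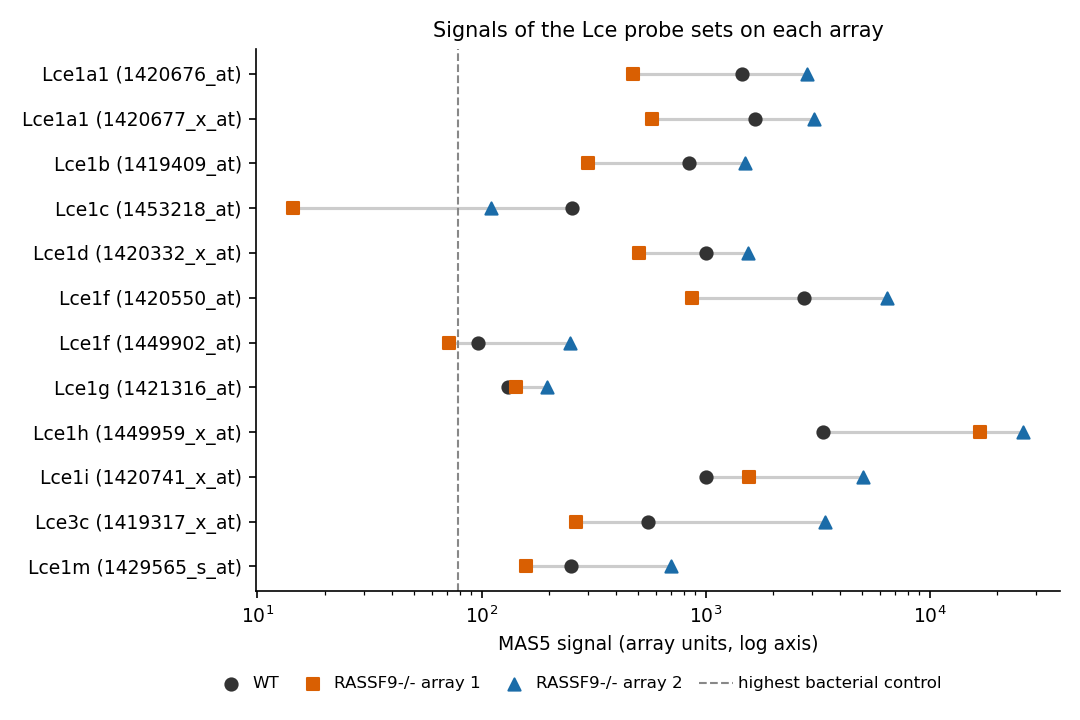
MAS5 signal of each of the 12 Lce probe sets (log axis, array units) on the WT array (circles), RASSF9-/- array 1 (squares) and array 2 (triangles). The dashed line is the highest bacterial control, 78.4. In all 12 probe sets the triangle lies above the square, and WT lies between them in 8.

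Lce1h (probe set 1449959_x_at) was the member with the highest signal relative to WT on both RASSF9-/- arrays. Its signal was 3338.1 on WT, 16798.3 on array 1 and 26182.5 on array 2. Both RASSF9-/- values lay far above WT, and they differed from each other by 1.56-fold. The differences from WT were 2.33 and 2.97 on the log2 scale, with a mean of 2.65 (SE 0.38, limma adjusted p = 0.192), so the gene did not pass the test. Under the other scalings, filters, pseudocount, probe set rule and background its limma adjusted p was between 0.0689 and 0.552. By a t-test, which the methods name in general but not for the arrays, its p was not under 0.05 even unadjusted. Array 1, which shares its date with WT, showed the smaller of the differences.

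Lce1i and Lce1g, the neighbors of Lce1h with the most alike promoters, were also higher on both RASSF9-/- arrays. Lce1i (1420741_x_at) gave 1008.9 on WT, 1570.6 on array 1 and 5042.1 on array 2. Array 2 stood apart from the other 2 arrays, and the mean difference of 1.48 on the log2 scale (SE 0.68, adjusted p = 0.945) did not pass. Lce1g (1421316_at) was dim, with 131.8 on WT, 141.8 on array 1 and 195.0 on array 2. WT and array 1 were nearly level, the mean difference was 0.34 (SE 0.59, adjusted p = 1.00), and the array 1 value dropped below WT when each array was divided by its median. A count of 3 of 9 genes higher on both arrays is close to the 33.6% of all genes that were. No gene of the 9 was lower on both arrays, against 32.7% of all genes, or at least 2-fold lower on both, against 2.24%. Lce1c, lower on both, was not among the 9, because the filter used the mean log2 signal of all arrays. Without the filter, 1 Lce gene was at least 2-fold lower on both. At least 2-fold higher on both were 1 of 9 against 2.89%. Probes of Lce1h and Lce1i may also read other family members, so these are not separate measurements of each gene.

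Lce1a1, Lce1b and Lce1d, from one end of the cluster, showed the split, by similar amounts. Lce1a1 was read by a pair of probe sets. The one tested (1420677_x_at) gave 1657.9 on WT, 578.0 on array 1 and 3037.1 on array 2, and the other (1420676_at), which is not marked as matching other sequences, gave 1460.3, 474.4 and 2844.6. Both placed WT between the RASSF9-/- arrays, with array 2 at 5.25 times and 6.00 times array 1. Lce1b (1419409_at) gave 842.5 on WT, 299.5 on array 1 and 1505.7 on array 2. Lce1d (1420332_x_at) gave 1001.5, 503.9 and 1551.4. On the log2 scale the array 1 differences were -1.52 for Lce1a1, -1.49 for Lce1b and -0.99 for Lce1d, and those of array 2 were 0.87, 0.84 and 0.63. Their means were near 0 relative to their errors, at -0.32 (SE 0.90), -0.33 (SE 0.90) and -0.18 (SE 0.68). The adjusted p of each was 1.00.

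Lce1f and Lce1m showed the same split, with larger array 2 differences from WT than those 3 genes. The tested probe set of Lce1f (1420550_at) gave 2762.3 on WT, 871.5 on array 1 and 6455.5 on array 2, so that array 2 was 7.41 times array 1. Its second probe set (1449902_at) was dim, at 96.6 on WT, under the bacterial controls on array 1 and 248.3 on array 2. Both placed array 2 highest and array 1 lowest, but their mean differences from WT had opposite signs, -0.22 (SE 1.05) for the first and 0.46 (SE 0.90 in a fit of every probe set) for the second. Averaging the probe sets turned the Lce1f difference to 0.12. Lce1m (1429565_s_at), at the far end of the cluster, gave 250.5 on WT, 157.3 on array 1 and 702.7 on array 2. Its mean difference was 0.41 (SE 0.89, adjusted p = 1.00).

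Lce3c, the member from the Lce3 group, had the widest gap between the RASSF9-/- arrays among the 9 genes. Its signal (1419317_x_at) was 552.5 on WT, 263.7 on array 1 and 3421.3 on array 2. Array 2 was 13.0 times array 1, a difference of 3.70 on the log2 scale, against 0.46 for Lce1g, the smallest. Versus WT the differences were -1.07 on array 1 and 2.63 on array 2, with a mean of 0.78 (SE 1.34, adjusted p = 1.00). The error of the mean was larger than the mean itself.

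Lce1c (1453218_at) was the exception, with both RASSF9-/- arrays below WT. It gave 254.2 on WT, a signal under the bacterial controls on array 1 and 110.4 on array 2. WT stood above array 2 by 2.30-fold, and the RASSF9-/- mean was at least 2.73-fold lower than WT, with 1 of the 2 RASSF9-/- arrays measured above the controls. The mean of its log2 signals over all arrays was under the filter (a signal of 82.7). Its WT and array 2 signals were above that value, and the array 1 signal brought the mean below it. In the fit of every probe set it did not pass (limma adjusted p = 1.00). It kept the order of the other members in 1 respect, since array 2 was again above array 1.

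**Figure D3:**
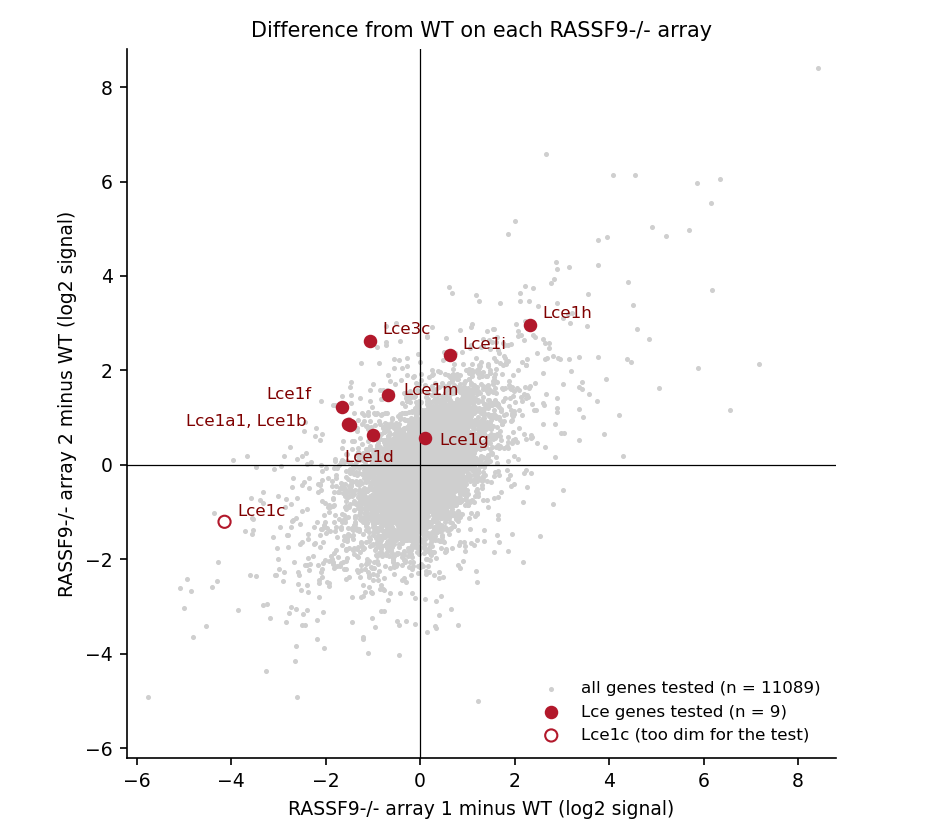
Difference from WT on array 1 (x axis) and array 2 (y axis), in log2 signal, for the 11089 genes tested (gray) and the Lce genes (red). Lce1c is open because its mean log2 signal was under the filter. Of the 9 filled points, 6 lie to the upper left of the origin, and Lce1h, at 2.33 and 2.97, lies farthest to the upper right. Lce1g sits next to the vertical axis and crosses it when arrays are divided by their medians.

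As a group the 9 genes had a median difference from WT of -0.99 on array 1 and 1.22 on array 2, on the log2 scale, where all genes tested had 0.05 and -0.04. The median of the mean differences was 0.34, versus -0.01 for all genes. The median of array 2 minus array 1 was 2.16, versus -0.07 for all genes. These are medians over genes that share probes and arrays and carry no test. The probe sets marked _x_at or _s_at (6 genes) had medians of -0.83 on array 1 and 1.90 on array 2. The plain _at probe sets (3 genes) had -1.49 and 0.84. Split were 4 of the 6 genes and 2 of the 3, while Lce1c, also plain _at, was under the filter. How far probes that match other family members shaped these values was not tested. Dividing each array by its median moved the median of all genes to -0.08 on array 1 and 0.11 on array 2, and 7 genes were then in the split class and 2 higher on both.

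The rest of the family gave further readings of the same arrays. Lce3a (1456001_at) gave 122.9 on WT, 85.6 on array 1 and 992.4 on array 2. Lce3b (1429641_x_at) gave 243.9, 220.9 and 892.9, and Lce3f (1456248_at) gave 109.7 on WT, a signal under the bacterial controls on array 1 and 516.6 on array 2. All 3, like Lce3c, were highest on array 2, with WT and array 1 closer together. Lce1a2 (1420350_at) differed from its near copy Lce1a1, with 943.0 on WT, 260.5 on array 1 and 513.4 on array 2. It was lower than WT on both arrays, and its mean difference of -1.37 (SE 0.56, limma adjusted p = 0.892) did not pass. Lce1l was above the bacterial controls on array 2 alone. The 4 of these 5 genes that were tested had medians of -0.54 on array 1 and 2.05 on array 2.

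Along the cluster on chromosome 3, the measured genes on either side of Lce1g, Lce1h and Lce1i were lower than WT on array 1, except Lce1l. Lce1l was under the bacterial controls on WT and array 1, so its direction there was not measurable. In RefSeq order Lce1g, Lce1h and Lce1i are adjacent, and these 3 were the members higher on both arrays, with the exception for Lce1g under median division given above. Toward one side lie Lce1f, Lce1d, Lce1c, Lce1a2, Lce1b and Lce1a1, which were all lower than WT on array 1. Of these, Lce1c and Lce1a2 were also lower on array 2, and the others were higher there. Toward the other side, Lce3a, Lce3b, Lce3c, Lce3f and Lce1m were lower than WT on array 1 and higher on array 2. Some array 1 differences were small, at 0.11 for Lce1g and -0.14 for Lce3b on the log2 scale. On array 1 Lce3f was under the bacterial controls and Lce3a, at 85.6, was near them. Lce1e on the first side and Lce1j, Lce1k, Lce3d and Lce3e on the other had no single-symbol probe set. This grouping by position was noticed in these values and was not tested.

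**Figure D4:**
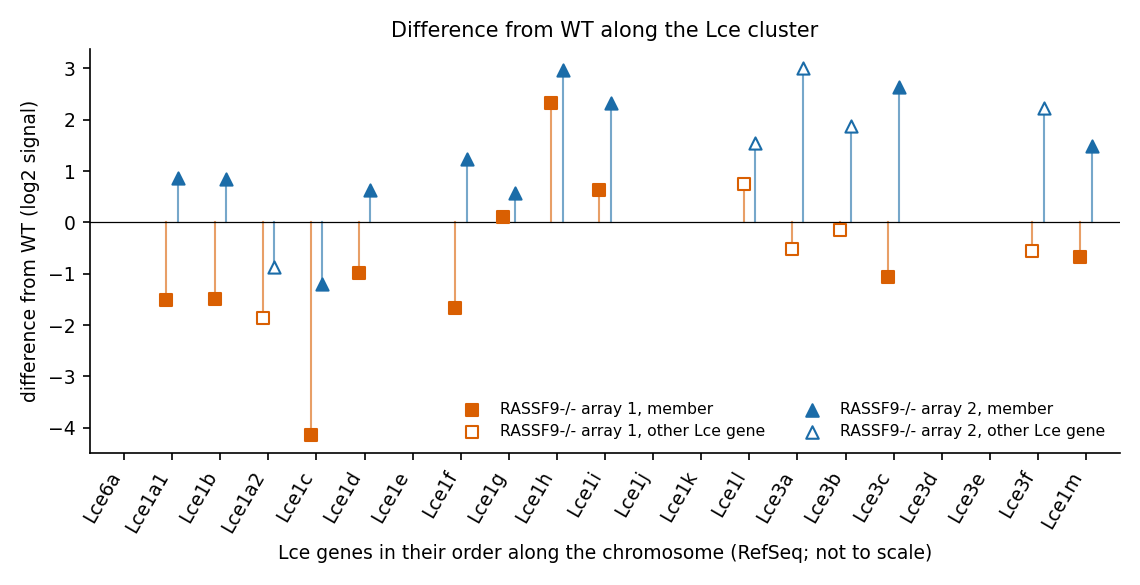
Difference from WT in log2 signal on array 1 (squares) and array 2 (triangles) for the Lce genes in chromosomal order, not to scale. Filled symbols are the 10 members, open symbols the other Lce genes, and gaps are genes with no single-symbol probe set. Array 1 values are below 0 on both sides of Lce1g, Lce1h and Lce1i, except for the dim Lce1l. Lce1l was under the bacterial controls on WT and array 1. The array 1 values of Lce1g and Lce3b are small, at 0.11 and -0.14.

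Other envelope genes show how far the Lce pattern was shared. Small proline-rich (Sprr) genes, whose proteins cross-bridge the envelope, were tested for 9 of 16 listed. None was lower on both arrays, 4 were higher on both and 5 were split, with medians of -0.42 on array 1 and 1.05 on array 2. Sprr2d was the 1 called gene among them, and it rose from 498.4 on WT to 15040.2 on array 1 and 16294.4 on array 2 (adjusted p = 0.0142), where 0.0812% of all genes were called. No gene was called, Sprr2d included, with quantile normalization, with signals raised to the bacterial controls or without the intensity trend. Sprr2f was under the bacterial controls on WT and gave 1006.4 on array 1 and 2010.0 on array 2 (adjusted p = 0.186), Sprr2h gave 8873.9, 9617.8 and 18355.8, and Sprr2j-ps was under the bacterial controls on WT and array 1 and at 955.4 on array 2. The Sprr2 genes are near copies as well, so their probe sets may also share transcripts. These 4 genes were named for lying on the same side of WT on both arrays, so their rise says nothing of the 5 that were split.

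The list of filaggrin, loricrin, involucrin and other envelope and cornification genes (14 of 19 tested, 0 called) differed from the Lce genes in its level relative to WT and resembled them in the gap between the RASSF9-/- arrays. Its medians were -1.53 on array 1 and -0.05 on array 2, and 8 of 14 were lower on both arrays, but 11 of 14 were at least 2-fold higher on array 2 than on array 1. Lor, which encodes loricrin, the main reinforcing protein, gave 796.2 on WT, 328.3 on array 1 and 2129.5 on array 2, with WT between the RASSF9-/- arrays as for most Lce genes. Flg, which encodes the filament-binding precursor profilaggrin, gave 589.4 on WT, a signal under the bacterial controls on array 1 and 570.4 on array 2, so that array 2 was level with WT. Ivl, which encodes involucrin of the early scaffold, gave 5061.7, 1791.4 and 1821.5, lower on both arrays to a similar extent (mean difference -1.49, SE 0.34, adjusted p = 0.372). Scel, which encodes sciellin, gave 5728.2, 516.9 and 1123.5, and Cst6, which encodes the protease inhibitor cystatin E/M, gave 22046.4, 7427.5 and 5375.5. Krtdap gave 16757.7, 1599.3 and 10076.8. Crct1, a neighbor in the complex, gave 22449.2 on WT, 29286.1 on array 1 and 35440.2 on array 2. Scel, Cst6, Krtdap and Crct1 were named for lying on the same side of WT on both arrays. Their directions say nothing of the list, in which 5 of 14 were split.

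Enzymes that cross-link or process the envelope (13 of 16 tested) had medians of -0.91 on array 1 and 0.09 on array 2, with 7 split, 4 lower on both and 1 higher on both, and 0 were called. Klk5, a kallikrein protease of desquamation, gave 946.0 on WT, 185.0 on array 1 and 201.7 on array 2. Asprv1, a protease that processes profilaggrin, gave 21011.9, 4704.1 and 15880.7, while St14, which encodes matriptase, gave 4526.1, 6005.4 and 7115.3. Pla2g4e was dim, at 123.2, 102.6 and 84.5. Klk5 and Asprv1 were thus lower on both arrays and St14 was higher, none past the test. The rule named only genes on the same side of WT on both arrays. These directions therefore say nothing of the list, in which 7 of 13 were split.

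Regulators of terminal differentiation (23 of 26 tested, 0 called) showed a smaller gap between the RASSF9-/- arrays, with a median of 0.41 for array 2 minus array 1. Their medians from WT were -0.57 on array 1 and 0.00 on array 2, and 10 were lower on both, 9 split and 3 higher on both. Maf, a factor of late differentiation, gave 947.4, 383.1 and 285.9. Trp63, which encodes p63 and maintains the epidermal lineage, gave 3239.3, 1459.9 and 1542.9. Notch1, which promotes exit from the basal layer, gave 5255.8, 2315.9 and 2605.5, and Cebpa gave 1240.9, 698.4 and 501.6. On these 4 genes the RASSF9-/- arrays lay close together and below WT, with adjusted p between 0.656 and 0.894. The rule that named them asked for the same side of WT on both arrays, so their ordering says nothing of the list, in which 9 of 23 were split.

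Spinous-layer genes (6 of 10 tested, 0 called) lay below WT more than any other list here, with medians of -2.86 on array 1 and -1.60 on array 2. Dsc1, a desmosomal cadherin, gave 1116.9 on WT, a signal under the bacterial controls on array 1 and 89.4 on array 2. Lgals7 gave 8188.5, 255.9 and 1000.7, Dsg1a gave 2688.1, 138.1 and 647.4, and Krt77 gave 173.4, 105.1 and 78.6. These 4 genes were named for lying on the same side of WT on both arrays. The remaining 2 of the 6 were split like most Lce genes and are added here after their values were seen: Krt10, a suprabasal keratin, gave 396.7, 338.5 and 530.8, and Dsg1b gave 333.7, 123.5 and 476.8. Krt1, another suprabasal keratin, was under the filter and not tested, and is added in the same way. It gave 440.1 on WT and signals under the bacterial controls on both RASSF9-/- arrays, at least 5.61-fold lower on average. Basal-layer genes (7 of 8 tested, 0 called) had medians of -0.33 and -0.01. Krt14, a basal keratin, was nearly level at 38140.1, 38752.3 and 38300.2. All of these lists were read on the same 3 arrays against the same single WT array.

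**Figure D5:**
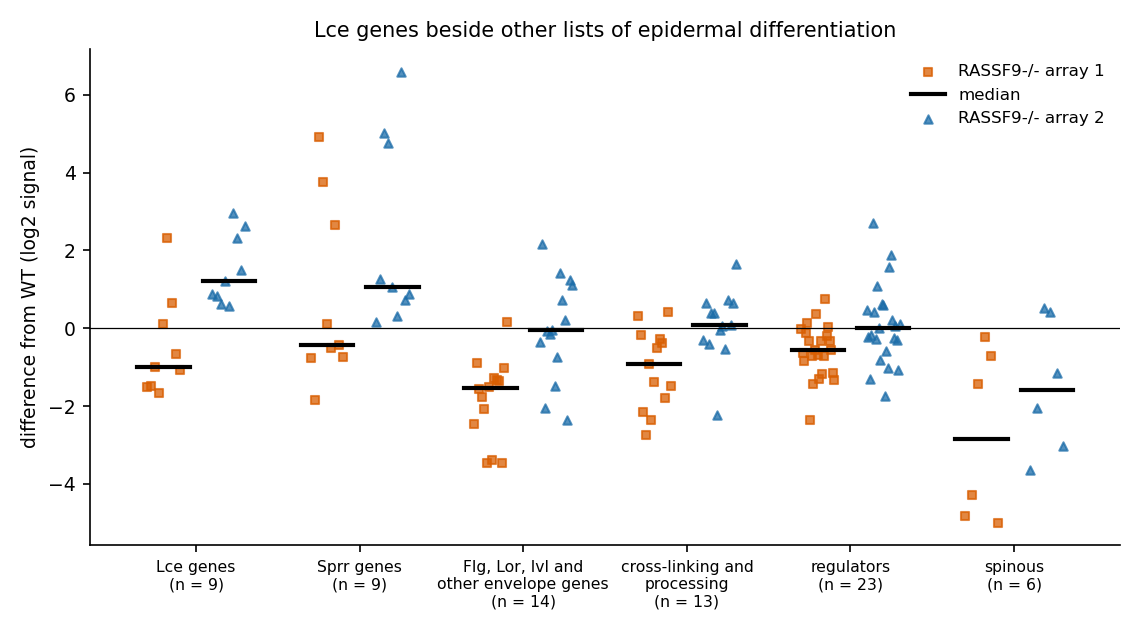
Difference from WT in log2 signal for each gene tested in 6 lists, on array 1 (squares) and array 2 (triangles), with horizontal bars at the medians. The Lce medians are -0.99 and 1.22, the Sprr medians -0.42 and 1.05, and the remaining lists have array 2 medians between -1.60 and 0.09.

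Markers of other cells that a skin preparation can hold were set beside the split. All 7 melanocyte markers were above the bacterial controls on every array. Their summed signal was 29399 on WT, 24999 on array 1 and 35285 on array 2, the same order as most Lce genes. Singly, 4 of the 7 had that order, 2 were higher than WT on both arrays and 1 was lower on both. Their median of array 2 minus array 1 was 0.55 on the log2 scale, against 2.16 for the Lce genes. The summed signal of the 7 keratinocyte markers was 131180, 102494 and 127077, lowest on array 1. Of the sebaceous and hair follicle markers, 2, 3 and 4 of 6 were above the controls, with sums of 3976, 652 and 2508 and with Krt25 and Krt71 under the controls on all arrays. Different genes made up these sums, since Krt79 gave 3644.7 on WT, a signal under the controls on array 1 and 120.7 on array 2, and Krt75 was under the controls on WT and gave 246.6 and 2197.1. The sums of 7 fibroblast markers (6, 6 and 5 above the controls) were 1408, 1084 and 955. Those of 6 macrophage and Langerhans markers (2, 3 and 2 above) were 1055, 1220 and 1909, with Cd207, Itgam and Ptprc under the controls on all arrays. Csf1r made up most of these sums, at 784.4, 791.8 and 1685.7. Of the 3 macrophage and Langerhans markers tested, it was the 1 that was higher on array 2 than on WT. The sums of the 3 T cell markers on the array (2, 2 and 1 above) were 470, 353 and 136, mostly from Thy1 at 363.8, 232.2 and 111.5. Endothelial sums were 262, 355 and 335 for 5 markers (1, 3 and 1 above), with Cdh5 and Pecam1 under the controls throughout, and the 3 Merkel cell markers were under the controls on every array. The part of these differences and of culture time in the Lce values was not tested. By the labels both RASSF9-/- samples had 48 h of culture. Array 2 was the only array of its date, so the date cannot be told apart from the mouse and plate behind it.

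The genes whose pattern over the 3 arrays was most like the Lce median were named by the distance of their log2 differences from -0.99 and 1.22. Nearest was Tchh, which encodes trichohyalin, a protein of hair follicle inner root sheath and of the same gene complex, at a distance of 0.0296. Tchh gave 1348.2 on WT, 665.8 on array 1 and 3177.5 on array 2. Alg13 (distance 0.129), Lrrn4cl (0.140), Mal (0.142) and Hpgd (0.147) followed. Mal gave 12970.7, 6686.7 and 27555.4. All 5 have WT between the RASSF9-/- arrays, which is what the measure selects.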

How the data were processed

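Total RNA of primary keratinocytes was hybridized to Affymetrix Mouse Genome 430 2.0 arrays, 1 WT and 2 RASSF9-/-. The authors deposited MAS5 signals (named in the submitters' processing notes), a linear intensity per probe set with a trimmed mean of 500 per array (the values bear this out once 2% is trimmed from either end). No detection calls were used. The highest of 27 Bacillus subtilis control probe sets, 78.4, served as background. The number of arrays limits the precision. A gene's own spread came only from the 2 RASSF9-/- arrays, which have different array dates, and WT was assumed to vary alike. The limma p-values combine that spread (1 degree of freedom) with a prior spread from all genes (5.31 degrees of freedom).

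Log2 signals without pseudocount were compared by lmFit and eBayes with an intensity trend (limma 3.58.1, R 4.3.3, two-sided, Benjamini-Hochberg, called under 0.05). The fit had 1 residual and 5.31 prior degrees of freedom. Of 45037 probe sets that are not controls, 34945 had 1 symbol, 932 several and 9160 none. The brightest probe set of each gene was kept where its mean log2 signal reached the 50th percentile (a signal of 82.7), leaving 11089 genes. The fit was also run on simulated data with equal spread in both groups and no difference of date or culture time. That run therefore says nothing of those limits. Array date could not be a term, as no residual degree of freedom would be left. Promoters came from RefSeq (GRCm38.p6) and were aligned end to end (match 1, mismatch -1, gap opening -2, extension -0.5).

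Members and lists (other Lce genes, Sprr, further envelope genes, cross-linking and processing, regulators, spinous, basal and cell type markers) were chosen with earlier results of these data known. Named were all members, Rassf9, Flg, Lor and Ivl, up to 4 genes per list with the largest smaller-of-2 differences on the same side of WT on both RASSF9-/- arrays, and the 5 genes nearest the Lce median pattern. Those from the cell type lists are given as sums, apart from Krt79, Krt75, Csf1r and Thy1. Alternatives were another scaling, filter, pseudocount, probe set rule, background, trend, test, fold threshold and leaving out each RASSF9-/- array. The methods name GeneSpring for the arrays and t-tests only in general, with no design for the arrays. The methods' t-test here compared the 2 RASSF9-/- arrays with WT under equal spread (1 degree of freedom). It does not repeat the authors' own array analysis.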

Additional observations from a re-analysis of the deposited data

How the results depend on the processing

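No Lce gene passed the test under any setting tried, which were division by the array median, quantile normalization, a pseudocount of 32, no filter or one at the 75th percentile, averaged probe sets, raising signals to the bacterial controls, no intensity trend, the methods' t-test, and every probe set on its own. At an unadjusted p under 0.05 there was 1 Lce gene, but 2 with the pseudocount or the mean of probe sets and 0 with the methods' t-test, with or without Benjamini-Hochberg adjustment. Genes called over all genes numbered 9, against 0 with quantile normalization, raised background or no trend, 4 with the methods' t-test, and 5 with the 75th percentile or the pseudocount. Lce genes at least 2-fold lower on both RASSF9-/- arrays numbered 0, or 1 (Lce1c, then tested) without the filter or with the pseudocount. At a threshold of 1.5-fold, 2 were higher on both in place of 1. The mean of probe sets turned Lce1f to 0.12.

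The result rests on which RASSF9-/- array is used. Leaving out each in turn gave a median Lce difference of 1.22 (without array 1) and -0.99 (without array 2), 5 and 1 genes at least 2-fold higher, and 0 and 4 at least 2-fold lower. With 1 array a group there is no test. The median of 0.34 became 0.08 without the filter, 0.06 with the pseudocount and -0.18 with the 75th percentile. The counts by direction were added as alternatives after the data were seen. The split class held 5 to 7 genes, and 6 to 8 were at least 2-fold higher on array 2 than on array 1. No paired analysis was possible because WT has 1 array. Signals near the bacterial controls (Lce1c, Lce1g, the dimmer Lce1f probe set) limit those readings.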
